A study of Mus musculus with 14 samples.

Results

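The nuclear genes of oxidative phosphorylation were followed in dendritic cells, monocytes and macrophages of mouse bone marrow. They were taken as the genes whose symbol begins with Nduf, Uqcr, Cox4, Cox5, Cox6, Cox7, Cox8 or Atp5, leaving out pseudogene symbols ending in -ps (there were 0), and that reached 1 CPM in at least 3 libraries of their table. CPM are reads scaled to the library total, with no division by gene length. Of 90 such symbols among the 24980 genes listed for dendritic cells, 83 passed, and of 88 among the 17118 genes listed for monocytes and macrophages, 82 passed. All 82 were also among the 83, and the additional gene was Cox6a2. It reached 1 CPM in 4 dendritic cell libraries, all from mice treated with PAM3CSK4. The 83 members comprised 35 subunits and 8 assembly factors of complex I, 8 subunits of complex III, 13 of complex IV (12 in the smaller table), 17 of complex V, the supercomplex factor Cox7a2l and Ndufb4c, which was placed in no complex.

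Bulk RNA sequencing covered 14 libraries of cells sorted from the marrow of Cx3cr1 gfp/+ mice, which carry a GFP reporter in 1 of the 2 copies of the fractalkine receptor gene. The series' design text calls the mice wildtype, and every group carries the reporter. Dendritic cells (GFP-high, MHC class II-high, CD11c-high, Gr-1- and B220-) came from mice treated with vehicle (4 libraries) or with PAM3CSK4 given once (4 libraries). PAM3CSK4 is a synthetic lipopeptide agonist of the receptor pair TLR1/2. Monocytes (GFP-high, CD115+, B220-, of any Gr-1 level from low to high, 3 libraries) and macrophages (GFP-, MHC class II-high, CD169+, Gr-1- and B220-, 3 libraries) were taken at baseline. The dose, the time to collection, the ages, the numbers of mice and whether each library is a separate mouse are not given in the labels, so the p-values rest on a library-to-library spread that may be technical. The comparisons ask how the genes respond to the agonist in dendritic cells and how their levels differ among the 3 populations.

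Oxidative phosphorylation is the process by which mitochondria use electrons from nutrients to make ATP. Complexes I, III and IV pass the electrons to oxygen and pump protons across the inner membrane, and complex V, the ATP synthase, uses the returning protons to make ATP. A few core subunits are encoded in mitochondrial DNA and the rest in the nucleus, and activated dendritic cells and macrophages are known for shifting between this process and glycolysis. The 13 protein-coding genes of mitochondrial DNA were not analysed here.

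Promoters of 69 of the 83 members were found in RefSeq (GRCm38.p6) by symbol or, for Atp5f1 (Atp5pb) and Atp5s (Dmac2l), by synonym. They were taken as the 250 bases before and 50 bases after the start site. The 4 below were chosen after the values were seen: Cox5a and Atp5g3 rose with PAM3CSK4, Cox7a2l had the lowest log2 change of the members, and Cox6a1 is the common partner of the third gene that rose, Cox6a2. Capitals mark matches, on either strand, to GCATGCGC (NRF1), CCGGAAG (ETS family) or AAGATGGC (YY1), motifs of factors known to act at nuclear genes of the respiratory chain.
Cox5a, chr9:57520982-57521281, plus strand, no match: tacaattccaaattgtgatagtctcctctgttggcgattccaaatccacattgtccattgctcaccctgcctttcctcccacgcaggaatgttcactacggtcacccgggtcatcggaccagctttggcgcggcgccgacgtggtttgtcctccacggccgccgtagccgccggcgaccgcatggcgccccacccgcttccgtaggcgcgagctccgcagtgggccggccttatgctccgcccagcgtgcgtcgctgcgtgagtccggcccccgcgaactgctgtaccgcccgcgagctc
Atp5g3, chr2:73911277-73911576, minus strand, no match: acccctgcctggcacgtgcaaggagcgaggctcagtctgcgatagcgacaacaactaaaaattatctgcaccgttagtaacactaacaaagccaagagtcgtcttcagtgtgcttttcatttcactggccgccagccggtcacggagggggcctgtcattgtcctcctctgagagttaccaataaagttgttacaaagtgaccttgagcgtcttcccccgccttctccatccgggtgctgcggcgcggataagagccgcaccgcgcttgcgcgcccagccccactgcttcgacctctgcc
Cox7a2l, chr17:83514284-83514583, minus strand, no match: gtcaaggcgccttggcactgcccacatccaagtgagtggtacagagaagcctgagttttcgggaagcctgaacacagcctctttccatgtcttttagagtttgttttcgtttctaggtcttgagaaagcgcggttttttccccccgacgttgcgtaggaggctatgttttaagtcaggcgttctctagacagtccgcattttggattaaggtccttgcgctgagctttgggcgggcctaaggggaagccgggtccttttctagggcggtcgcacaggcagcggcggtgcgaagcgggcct
Cox6a1, chr5:115348909-115349208, minus strand, 1 CCGGAAG match and overlapping GCATGCGC matches of both strands: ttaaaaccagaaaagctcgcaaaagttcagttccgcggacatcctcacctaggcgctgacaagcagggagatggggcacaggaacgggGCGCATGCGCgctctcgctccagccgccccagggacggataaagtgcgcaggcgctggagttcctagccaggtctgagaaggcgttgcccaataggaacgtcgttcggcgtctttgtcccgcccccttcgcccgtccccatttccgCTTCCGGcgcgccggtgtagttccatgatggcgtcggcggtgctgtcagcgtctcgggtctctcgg
A match is a run of letters and not a shown binding site. The NRF1 letters were in 15.9% of the 69 promoters, against 2.71% of all 32851 RefSeq promoters and 5.73% of the promoters of 8969 genes tested in dendritic cells. The 8969 genes were matched by symbol only. The YY1 letters were in 14.5%, against 2.75% and 5.14%. The ETS letters were in 21.7%, against 8.86% of all promoters and 19.96% of those of tested genes, so the share of members was near that of other genes active in these cells. At least 1 of the 3 motifs was in 44.9% of the members' promoters, 13.3% of all promoters and 28.1% of those of tested genes.

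In dendritic cells from mice treated with PAM3CSK4, 3 of the 83 members rose and 0 fell (limma on log2(CPM + 1), two-sided, Benjamini-Hochberg adjusted p under 0.05 over 11377 genes). Of these, Cox6a2 is a member and was tested only through the PAM3CSK4 libraries, where it is high. The share of members called, 3.61%, was below the 5.12% called among all genes tested (2.82% higher, 2.29% lower). Cox6a2 and Cox5a encode parts of cytochrome c oxidase, and Atp5g3 encodes a part of the rotating c-ring of the ATP synthase. Most of the other members had small differences in the same direction. In 79 of 83 members (95.2%) the log2 change was above 0, against 67.3% of all genes tested, and the median was 0.57 against 0.20. At an unadjusted p under 0.05, 43 members were higher and 1 lower, against 17.9% and 7.06% of all genes tested. Markers of dendritic cells were lower in the same libraries: of 16 listed genes 5 fell and 0 rose, with a median log2 change of −1.74, and their mean log2(CPM + 1) lay between 6.94 and 7.26 in the vehicle libraries but at 5.85, 5.29, 5.64 and 3.56 after PAM3CSK4 (replicates 1 to 4). The part of this in the members' values was not tested. In bulk libraries fewer cells of a type and less RNA per cell cannot be told apart.

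The direction for all genes together depended on the scaling of the libraries. Among all genes 321 rose and 261 fell as deposited, 276 and 390 after each library was rescaled to a common total, 208 and 487 after median centring, and 237 and 438 after quantile normalization. Over all genes the median change (log2) was 0.20, 0.07, −0.02 and 0.02 in that order. Relative to it the median of the members was higher by 0.37, 0.35, 0.37 and 0.35.

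**Figure D1:**
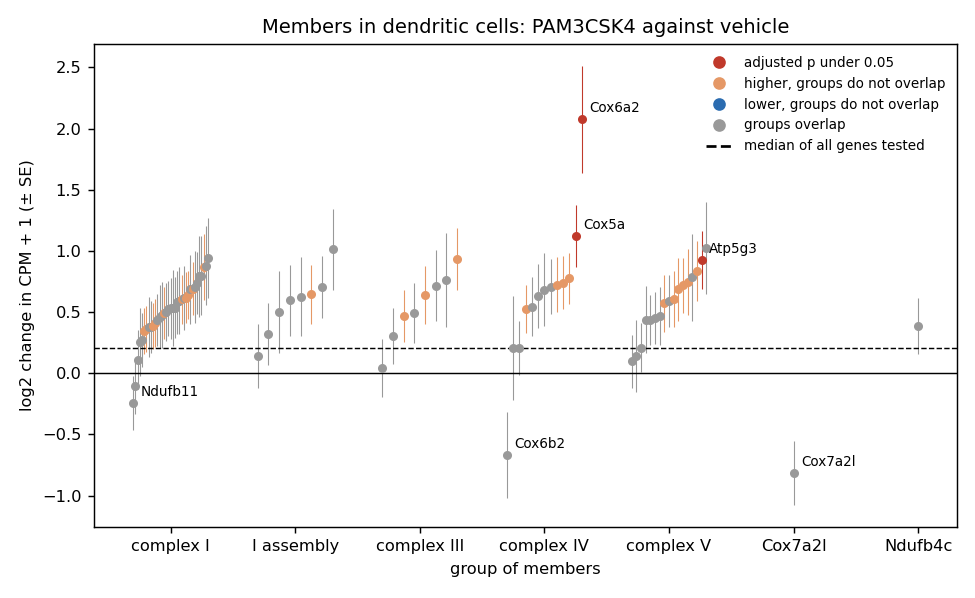
Log2 change (± SE) of each of the 83 members in dendritic cells, PAM3CSK4 (n = 4) against vehicle (n = 4), by complex, on the log2(CPM + 1) scale. The 3 members past the threshold lie in complexes IV and V, 79 of 83 members lie above 0, and Cox7a2l lies at −0.82, below all the others; the dashed line is the median of all genes tested, 0.20.

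The complexes differed between the groups by similar amounts. The median log2 change was 0.53 for the subunits of complex I, 0.61 for its assembly factors, 0.57 for complex III, 0.68 for complex IV and 0.59 for complex V. Averaged over its members, complex I read 3.66 to 4.15 on the log2(CPM + 1) scale in the 4 vehicle libraries and 4.16 to 4.64 in the 4 PAM3CSK4 libraries, which left almost no gap. Complex IV read 3.90 to 4.39 and 4.63 to 5.05, and complex V 4.65 to 5.10 and 5.30 to 5.66. Over its 12 members without Cox6a2, complex IV read 4.22 to 4.73 and 4.80 to 5.26. The groups did not overlap for complexes I, III, IV and V or the assembly factors, as deposited and after each of the 3 rescalings. No test was made of these averages, because the members were chosen with results known.

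**Figure D2:**
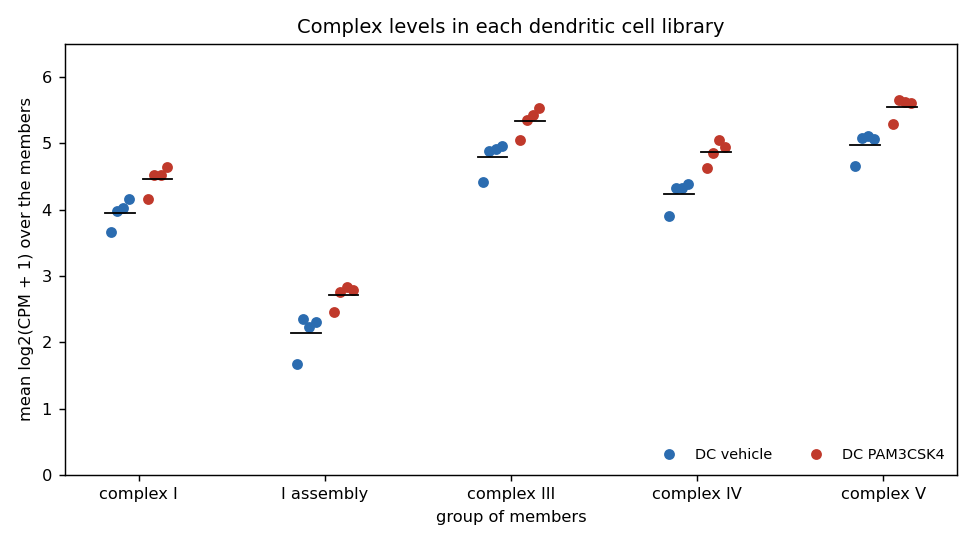
Mean log2(CPM + 1) over the members of each complex in each dendritic cell library, in replicate order within a group; bars are group means. The PAM3CSK4 libraries lie above the vehicle libraries in all 5 groups of members, by 0.51 (complex I) to 0.64 (complex IV), and replicate 1 is the lowest library of its group in each. Complex IV here includes Cox6a2. Over its 12 members without Cox6a2 the group means were 4.58 and 5.09, against 4.79 and 5.34 for complex III and 4.97 and 5.55 for complex V.

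Single members were read against the same background. In 27 of 83 (32.5%) every PAM3CSK4 library was above every vehicle library, against 10.1% of all genes tested, and in 0 was every library below, against 4.68%. Cox6a2, a member only through its PAM3CSK4 values, is among the 27. Among the 7203 genes with a mean of at least 10 CPM, a set added after the values were seen, 11.5% were higher in this way, 4.35% were lower and 69.4% had a log2 change above 0. The count of 27 was 27 without vehicle replicate 1, 51 without PAM3CSK4 replicate 1 and 30 without PAM3CSK4 replicate 4, where 11%, 19.6% and 13.2% of all genes were higher without overlap, and it was 24, 15 and 16 after the rescaling, the median centring and the quantile normalization. With those scalings 8.14%, 5.56% and 6.65% of all genes were higher without overlap.

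Replicate 1 was the low library in both groups. Vehicle replicate 1 was the lowest of its group for 63 of 83 members and PAM3CSK4 replicate 1 for 58. The CPM listed summed to 350368 in vehicle replicate 1 and to 442146 to 532242 in the other 7 dendritic cell libraries. Leaving out PAM3CSK4 replicate 1 raised the members called to 13 (15.7%), against 8.72% of all genes. Leaving out vehicle replicate 1, 2 or 3 lowered them to 0, against 1.78%, 1.59% and 1.95% of all genes. Without vehicle replicate 1 the members' median log2 change was 0.39, higher than the 0.12 of all genes by 0.27. With every library these values were 0.57, 0.20 and 0.37. In the fit without vehicle replicate 1, 2 members were lower without overlap, against 7.71% of all genes.

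Complex I takes electrons from NADH. None of its 35 subunits passed the test, and 16 were higher and 0 lower at an unadjusted p under 0.05. Its core subunits, which carry the flavin and the iron-sulphur clusters, had the smallest median of the classes with more than 1 member, a log2 change of 0.39 over 7 genes. Ndufv2 read 24.8, 30.4, 40.5 and 31.9 CPM in vehicle replicates 1 to 4 and 42.1, 50.6, 51.9 and 51.0 CPM in PAM3CSK4 replicates 1 to 4 (the order used below), a log2 change of 0.62 ± 0.21 (SE, limma adjusted p = 0.105). Each PAM3CSK4 library was above each vehicle library.

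The 28 accessory subunits surround the core, and 26 of them had a log2 change above 0. Ndufb8, a subunit of the membrane arm, read 32.6, 35.5, 37.9 and 40.8 CPM and 47.0, 64.7, 58.7 and 61.5 CPM, with a log2 change of 0.64 ± 0.20 (limma adjusted p = 0.0787). Ndufc2 read 10.8, 16.0, 20.4 and 22.1 CPM and 23.1, 28.7, 38.6 and 38.2 CPM (0.87 ± 0.27, limma adjusted p = 0.08). Neither pair of groups overlapped, as for Ndufs4 and Ndufa8. Ndufb11 (−0.24 ± 0.22) and Ndufa6 (−0.10 ± 0.23) were the 2 subunits below 0, were named after their values were seen, and their groups overlapped.

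The assembly factors build complex I and do not stay in it. All 8 had a log2 change above 0 and 0 passed the test. The factor Ndufaf4 read 1.73, 5.25, 3.98 and 3.75 CPM and 4.26, 9.14, 8.85 and 11.8 CPM, a log2 change of 1.01 ± 0.33 (limma adjusted p = 0.0946). Ndufaf3, which works with Ndufaf4, read 7.15, 4.33, 4.21 and 6.65 CPM and 7.71, 9.21, 10.4 and 9.16 CPM (0.64 ± 0.24, limma adjusted p = 0.131). The groups overlapped for Ndufaf4 and not for Ndufaf3.

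Complex III passes electrons from ubiquinol to cytochrome c. None of its 8 members passed the test, all 8 were above 0, and 4 were higher at an unadjusted p under 0.05. Uqcrq, a small subunit, read 11.6, 16.0, 11.6 and 19.9 CPM and 20.8, 26.8, 33.5 and 35.1 CPM, a log2 change of 0.93 ± 0.25 (limma adjusted p = 0.0533). The core protein Uqcrc2 read 32.8, 51.7, 53.9 and 40.5 CPM and 55.6, 65.4, 59.0 and 64.8 CPM (0.47 ± 0.21, limma adjusted p = 0.199). In both genes the groups did not overlap, whereas Uqcrh, the hinge protein, was close to 0 at 0.04 ± 0.24.

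Complex IV, cytochrome c oxidase, reduces oxygen. Of its 13 members 2 rose, 0 fell and 12 were above 0. The 2 include Cox6a2, a member only through its PAM3CSK4 values. Cox5a (chromosome 9, 57521232 to 57532427 in mm10), a subunit on the matrix side, read 21.2, 32.6, 29.6 and 25.6 CPM with vehicle and 49.2, 90.7, 63.4 and 44.9 CPM with PAM3CSK4. It rose from 27.2 ± 4.93 CPM (SD, n = 4) to 62.1 ± 20.7 CPM, by a log2 change of 1.12 ± 0.25 (limma adjusted p = 0.028). The groups did not overlap. Its change stayed between 0.92 and 1.26 with each library left out, and the call was lost without any 1 of 6 of the 8 libraries (all but PAM3CSK4 replicates 1 and 4; adjusted p up to 0.0841).

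Cox6a2 (chromosome 7, 128205435 to 128206367), known as the form of subunit VIa of heart and skeletal muscle, was near the floor of the table with vehicle. It was listed at the lowest value of the table, 0.0001 CPM, in vehicle replicates 1 and 3 and at 0.0792 and 0.318 CPM in replicates 2 and 4. With PAM3CSK4 it read 5.25, 1.81, 10.3 and 1.27 CPM. It rose by 2.08 ± 0.44 on the log2(CPM + 1) scale (limma adjusted p = 0.0216), and the groups did not overlap. Only PAM3CSK4 libraries reached 1 CPM, so Cox6a2 became a member and was tested through the group where it is high. On the scale of CPM per kilobase of exon, Cox6a2 averaged 0.146 and 6.84 in the vehicle and PAM3CSK4 groups, and its common partner Cox6a1 averaged 61.9 and 91.2. In the libraries Cox6a1 read 31.0, 44.1, 45.2 and 53.4 CPM and 46.2, 63.1, 84.5 and 62.3 CPM (0.54 ± 0.24, limma adjusted p = 0.19). Cox6a2 no longer passed when vehicle replicate 1, 2 or 3 was left out (limma adjusted p at most 0.0794).

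Markers of plasmacytoid dendritic cells were mostly, but not all, higher with PAM3CSK4. Of 8 listed markers 7 were tested, and 3 rose and 1 fell, against 2.82% and 2.29% of all genes tested. The marker that fell had a log2 change of −3.24. The mean log2(CPM + 1) of the list was 1.78 to 2.38 with vehicle and 3.91, 2.79, 3.83 and 1.97 with PAM3CSK4. PAM3CSK4 replicate 4 thus lay within the vehicle range. Siglech and Pacsin1 are shown as examples of higher markers and do not stand for the list. Siglech, a lectin of these cells, read 1.39, 5.61, 2.62 and 4.45 CPM and 84.8, 18.6, 66.4 and 4.83 CPM. Pacsin1, another marker, read 0.0001, 0.236, 0.206 and 0.515 CPM and 9.31, 2.42, 9.47 and 1.18 CPM. Like Cox6a2, Pacsin1 reached 1 CPM only in PAM3CSK4 libraries and was tested through the group where it is high. PAM3CSK4 replicates 1 and 3 were thus the high libraries of Cox6a2, Siglech and Pacsin1, and replicate 4 the lowest of its group for all 3. Plasmacytoid dendritic cells are known to carry B220, and the sort kept B220- cells. The part of these cells in the change of Cox6a2 was not tested.

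**Figure D3:**
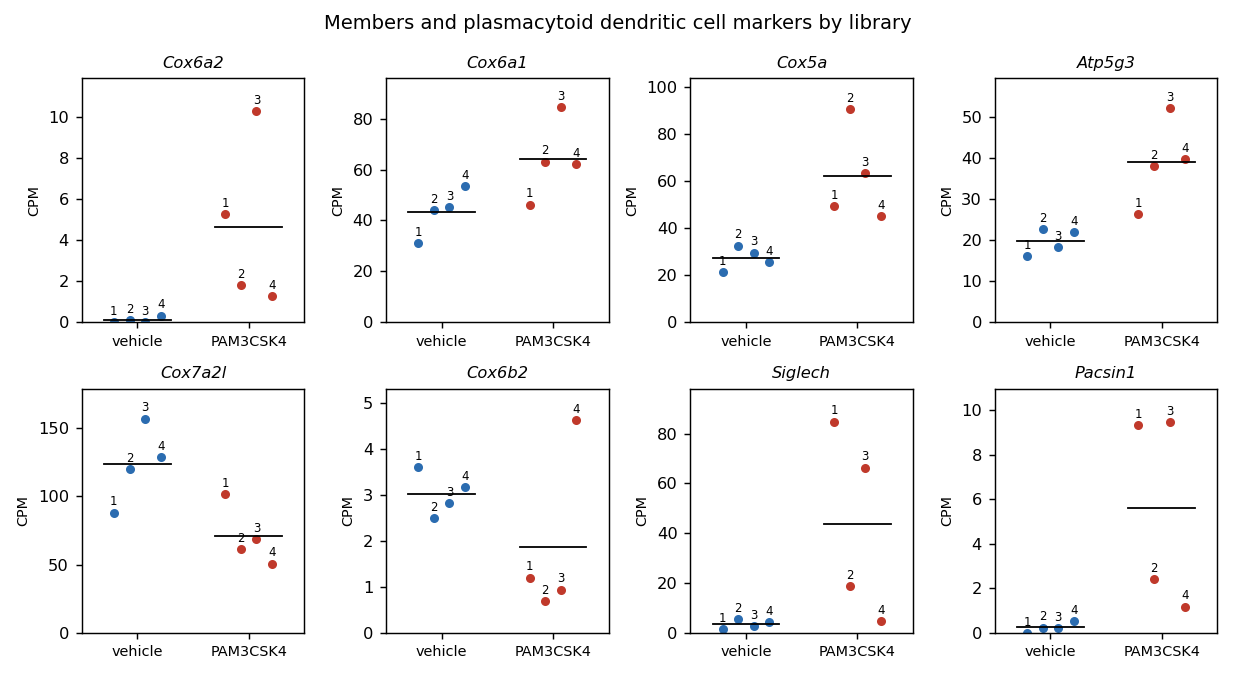
CPM of 6 members and of the plasmacytoid dendritic cell markers Siglech and Pacsin1 in each dendritic cell library, with the replicate number beside each point and bars at group means; each panel has its own axis from 0. Cox6a2, Siglech and Pacsin1 are highest in PAM3CSK4 replicates 1 and 3, Cox5a in replicate 2 and Atp5g3 in replicate 3.

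The other complex IV subunits were higher by less. Ndufa4, first assigned to complex I and now counted with complex IV, read 15.8, 21.5, 20.3 and 16.0 CPM and 25.9, 34.1, 33.1 and 35.5 CPM (0.78 ± 0.21, limma adjusted p = 0.0536). Cox5b, which binds zinc, read 25.0, 26.4, 33.0 and 37.4 CPM and 40.2, 54.2, 56.6 and 54.6 CPM (0.74 ± 0.22, limma adjusted p = 0.0672). In both genes the groups did not overlap. Cox4i1, the common form of the largest nuclear subunit, had one of the smallest differences, with 93.8, 109, 118 and 149 CPM against 136, 126, 111 and 169 CPM (0.21 ± 0.22, limma adjusted p = 0.581), and under median centring its sign turned.

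The tissue forms of complex IV other than Cox6a2 stayed low. In dendritic cells Cox4i2, Cox7a1, Cox8b, Cox8c and Ndufa4l2 did not reach the level of a member, and only Cox4i2 passed 1 CPM in any dendritic cell library, at 1.35 CPM. Cox6b2, the testis form of subunit VIb, read 3.60, 2.501, 2.83 and 3.18 CPM with vehicle and 1.20, 0.688, 0.941 and 4.63 CPM with PAM3CSK4, with a log2 change of −0.67 ± 0.35 (limma adjusted p = 0.258). The high value was in PAM3CSK4 replicate 4, and without it the log2 change was −1.05 with adjusted p = 0.0204. Its common partner Cox6b1 had 45.3, 53.1, 51.1 and 50.8 CPM and 61.3, 83.8, 65.3 and 82.0 CPM (0.53 ± 0.20, limma adjusted p = 0.131), so the partners had opposite signs.

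PAM3CSK4 replicate 4 stood apart in its markers. The mean log2(CPM + 1) of 12 erythroid genes was 6.03 in it and 1.43 to 3.93 in the other 7 dendritic cell libraries, that of 14 neutrophil genes 8.54 against 4.47 to 5.84, and that of the 16 dendritic cell genes 3.56 against 5.29 to 5.85 in the other 3 PAM3CSK4 libraries. The sort markers Itgax (CD11c) and H2-Ab1 (MHC class II) read 27.5 and 194 CPM in it, against at least 170 and 948.5 CPM in the other 7 libraries. Without it 3 members (3.61%) were called, against 6.83% of all genes: Cox5a and Cox6a2 rose and Cox6b2 fell. The members' median was then 0.50. The sort was set to keep Gr-1- cells, Gr-1 being a marker of neutrophils. The part of other cells in the members' values was not tested.

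Complex V makes ATP. Of its 17 members 1 rose, 0 fell and all 17 were above 0. Its c-ring is built from 1 mature protein made by 3 genes, Atp5g1, Atp5g2 and Atp5g3. Atp5g3 (chromosome 2, 73908447 to 73911327) read 16.1, 22.5, 18.2 and 21.8 CPM with vehicle and 26.2, 38.0, 52.1 and 39.7 CPM with PAM3CSK4, and rose by 0.93 ± 0.24 (limma adjusted p = 0.0471). The groups did not overlap. Atp5g1 read 8.17, 7.23, 12.0 and 14.9 CPM and 8.84, 17.7, 21.2 and 32.5 CPM (0.78 ± 0.36, limma adjusted p = 0.197). Atp5g2 read 37.1, 44.8, 42.3 and 54.8 CPM and 47.4, 52.3, 59.0 and 47.5 CPM (0.21 ± 0.20, limma adjusted p = 0.545). For these 2 genes the groups overlapped, and a difference between the 3 changes was not tested. The call of Atp5g3 was lost in 7 of the 8 fits with a library left out, all but the one without PAM3CSK4 replicate 1 (adjusted p up to 0.13), and under median centring (0.0591) and quantile normalization (0.0614).

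The catalytic subunit Atp5b read 221, 311, 308 and 354 CPM with vehicle and 398, 562, 500 and 689 CPM with PAM3CSK4 (0.84 ± 0.25, limma adjusted p = 0.0692). Atp5j2, a subunit of the membrane part, read 17.4, 26.2, 22.8 and 26.4 CPM and 30.6, 40.0, 48.2 and 36.6 CPM (0.72 ± 0.22, limma adjusted p = 0.082). Both were higher in every PAM3CSK4 library.

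Cox7a2l, which joins complex III to complex IV in supercomplexes, had the lowest log2 change of all 83 members and is named for that, after its value was seen. It lies on chromosome 17, 83501917 to 83514334, and read 88.0, 120, 157 and 129 CPM with vehicle and 102, 61.2, 68.6 and 50.8 CPM with PAM3CSK4. The log2 change was −0.82 ± 0.26 (limma adjusted p = 0.0876), and the groups overlapped through PAM3CSK4 replicate 1. The call was made with adjusted p = 0.0387, 0.0346 and 0.0342 after the rescaling, the median centring and the quantile normalization, and with 0.0327 without PAM3CSK4 replicate 1. Cox7a2, the complex IV subunit related to it, was on the other side, at 15.8, 23.8, 23.1 and 20.6 CPM against 28.0, 44.0, 31.1 and 37.7 CPM (0.72 ± 0.23, limma adjusted p = 0.0825).

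Lists of other genes of the same machinery held 0 calls, against 5.12% of all genes tested. Most of their genes were above 0, as were 67.3% of all genes tested. For lists of a few genes such counts cannot be told from those shares. Complex II, which passes electrons from succinate, had 7 of 7 tested genes above 0 and 0 called, with Sdhb at 21.2, 27.0, 21.1 and 34.4 CPM against 36.8, 39.1, 58.7 and 46.9 CPM (0.79 ± 0.24, limma adjusted p = 0.0732). The citric acid cycle had 17 of 17 above 0 and 0 called, with Idh3a at 0.94 ± 0.27 (limma adjusted p = 0.0611). Among 35 tested assembly factors without the prefixes 32 were above 0, and 0 were called. The list of ATP synthase inhibitor, carriers and uncoupling proteins had 4 of 5 above 0 and 0 called, led by the ATP/ADP carrier Slc25a4 at 0.83 ± 0.22 (limma adjusted p = 0.0525). For 15 regulators of mitochondrial biogenesis, among them Gabpa at 0.51 ± 0.26, 12 were above 0 and 0 were called. Cytochrome c1 (Cyc1) and cytochrome c (Cycs) were at 0.84 ± 0.28 and 0.39 ± 0.28, neither past the threshold.

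Lists outside the mitochondrion went in both directions. Among all genes tested 67.3% were above 0 and 2.82% rose. Of 36 cytosolic ribosomal protein genes 3 were above 0, with a median of −0.16 and 0 called. Of 24 genes of DNA replication and mitosis all 24 were above 0 and 8 rose, among them Rrm1, a subunit of ribonucleotide reductase, by 1.26 ± 0.24 (limma adjusted p = 0.0153). The polymerase clamp Pcna rose by 0.88 ± 0.19 (limma adjusted p = 0.0238). The erythroid list had 3 of 10 tested genes risen and the stem and progenitor list 2 of 8. The part of dividing or less mature cells in the members' values was not tested.

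Macrophages were then set against monocytes, where 0 of 82 members passed the same test, against 20.2% of 12188 genes tested (1564, or 12.8%, higher and 904, or 7.42%, lower). At an unadjusted p under 0.05, 2 members were higher and 2 lower, against 19.1% and 11.8% of all genes. The median log2 change of the members was −0.12 and that of all genes 0.10, and 31 of 82 members (37.8%) were above 0 against 57.4% of all genes. After the rescaling, the median centring and the quantile normalization the medians of all genes were 0.26, −0.02 and −0.03, and those of the members lay below them by 0.21, 0.21 and 0.18, as against 0.21 as deposited. The calls over all genes were then 2068 higher and 768 lower, 1370 and 1303, and 1004 and 1238.

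How many members separated depended on the scaling. In 5 of 82 members (6.10%) each macrophage library was above each monocyte library, against 20.4% of all genes, and in 8 (9.76%) each was below, against 13.8%, or 34.2% in either direction. Among the 8026 genes with a mean of at least 10 CPM, 12.1% were above and 17.2% below in this way, and 48.8% had a log2 change above 0. After the rescaling 13 members were above and 5 below, against 30.4% and 10.7% of all genes. After median centring the counts were 3 and 24, against 18.1% and 21.1%, and after quantile normalization 4 and 23, against 16.6% and 21.2%. For complexes I, III, IV and V the average levels overlapped between the groups as deposited and after the rescaling. Macrophages were below without overlap for complexes I and IV after median centring and for complex I after quantile normalization. Macrophage replicate 2 was the lowest of its group for 80 of 82 members, and its listed CPM summed to 416945 against 488270 to 578711 in the other 5 libraries. Without it the median of the members was 0.06 and 20 members were higher without overlap and 8 lower, against 28.6% and 14.5% of all genes. Without monocyte replicate 2 the counts were 8 and 28, against 34.0% and 22.8%. In that fit 3 members (3.66%) were called, against 26.7% of all genes: Ndufaf4 higher, Ndufb8 and Cox4i1 lower. Monocyte replicate 2 was the lowest of its group for 48 members and the highest for 27. Against the mean of the monocyte group it was higher by 0.11 (log2) over the third of members with the lowest GC content and lower, at −0.43, over the third with the highest, a view added after the values were seen.

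**Figure D4:**
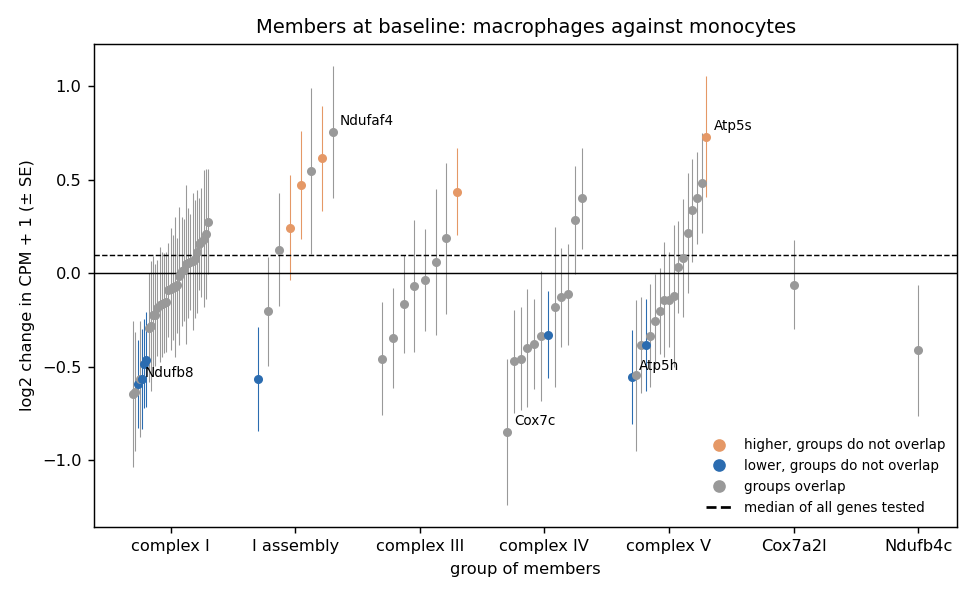
Log2 change (± SE) of each of the 82 members, macrophages (n = 3) against monocytes (n = 3), by complex, on the log2(CPM + 1) scale. No member passed the threshold, 31 of 82 lie above 0, and 3 of 8 complex I assembly factors are higher and 1 lower without overlap of the groups.

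In complex I, Ndufb8 had the smallest p. It read 55.7, 45.6 and 50.9 CPM in monocyte replicates 1 to 3 and 36.2, 28.4 and 35.7 CPM in macrophage replicates 1 to 3, a log2 change of −0.59 ± 0.24 (limma adjusted p = 0.104). The core subunit Ndufs8 read 31.5, 31.0 and 32.6 CPM and 21.6, 15.7 and 27.6 CPM (−0.56 ± 0.27, limma adjusted p = 0.173). Both were lower in every macrophage library, as was Ndufa10.

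The complex I assembly factors were on the other side, with 6 of 8 above 0. Ndufaf1 read 5.34, 5.41 and 5.18 CPM and 10.3, 7.07 and 8.83 CPM (0.61 ± 0.28, limma adjusted p = 0.159). Ndufaf4 read 4.72, 9.79 and 4.07 CPM and 14.2, 8.23 and 9.78 CPM (0.76 ± 0.35, limma adjusted p = 0.168), and Ndufaf7 was the exception, at −0.57 ± 0.28 with each macrophage library lower. Their average level was 2.32 to 2.40 in monocytes and 2.43 to 2.79 in macrophages. The macrophages were also above without overlap after the rescaling and the median centring, and below without overlap after quantile normalization, so no direction is given for them.

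In complex III, the core protein Uqcrc2 read 36.7, 47.8 and 37.2 CPM and 56.6, 50.1 and 58.1 CPM (0.44 ± 0.23, limma adjusted p = 0.238). It was the only member of its complex whose groups did not overlap. Complex IV had the lowest median of the complexes, −0.33, and 2 of 12 members above 0. Cox4i1 read 168, 92.0 and 143 CPM and 102, 77.9 and 103 CPM (−0.47 ± 0.27, limma adjusted p = 0.28), with the groups overlapping through monocyte replicate 2.

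In complex V the c-ring genes were at 0.22 ± 0.32 (Atp5g1), 0.40 ± 0.25 (Atp5g2) and 0.48 ± 0.27 (Atp5g3), none past the threshold. Atp5h, a subunit of the stalk, read 38.0, 49.0 and 36.5 CPM and 29.0, 22.9 and 31.3 CPM (−0.55 ± 0.25, limma adjusted p = 0.153). Atp5s, known as coupling factor B, read 2.19, 3.08 and 1.69 CPM and 6.37, 3.17 and 4.203 CPM (0.73 ± 0.32, limma adjusted p = 0.146). The groups of these 2 genes did not overlap.

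Of the related lists in this comparison, only the inhibitor and uncoupling list and the replication list held a call. Ucp2, an uncoupling protein of immune cells, read 673, 470 and 655 CPM in monocytes and 302, 277 and 319 CPM in macrophages and fell by 0.98 on the log2 scale (SE 0.26, limma adjusted p = 0.0178). Its groups did not overlap, but the call was kept in 1 of 6 fits with a library left out. Complex II had 3 of 7 tested genes above 0, the citric acid cycle 6 of 17 and the ribosomal proteins 25 of 36, with 0 called in each. Among all genes tested 57.4% were above 0 and 20.2% were called. The mitotic kinase Aurkb fell by 0.93 (SE 0.26, limma adjusted p = 0.0226), 1 of 24 in its list.

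The macrophage libraries carried markers of other cells. Among all genes tested 12.8% rose and 7.42% fell against monocytes. Of the markers tested, 12 of 12 erythroid, 10 of 11 plasma and B cell, 11 of 12 NK and T cell, 8 of 9 stem and progenitor and 5 of 5 megakaryocyte genes rose against monocytes, and 11 of 14 monocyte genes fell. Other lists were mixed. Of 13 neutrophil genes 6 rose and 6 fell, and of 16 dendritic cell genes 3 rose and 3 fell. Of 6 plasmacytoid dendritic cell genes 3 rose and 1 fell, and of 14 macrophage genes 6 rose and 1 fell. The mean log2(CPM + 1) of the erythroid list was 0.79 to 2.71 in monocytes and 3.56 to 5.90 in macrophages, and that of the macrophage list 2.81 to 4.54 and 4.54 to 5.03. Siglec1 (CD169) of the macrophage gate read 18.9, 18.6 and 25.2 CPM in macrophages and 34.7, 2.20 and 14.1 CPM in monocytes. The macrophage gate was set to keep B220- cells, B220 being a marker of B cells. The part of these cells in the members' values was not tested.

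The levels in all 3 populations were set side by side without a test, because the dendritic cell libraries used here were deposited in a separate table. The background is the 11202 genes that passed the filter of both tables. Over the 82 members of both tables the mean log2(CPM + 1) was 4.19 ± 0.22 (SD, n = 4) in vehicle dendritic cells, 4.43 ± 0.11 (n = 3) in monocytes, 4.34 ± 0.33 (n = 3) in macrophages and 4.71 ± 0.19 (n = 4) in dendritic cells after PAM3CSK4. Of these neighbours in order, vehicle dendritic cells (3.86 to 4.35), macrophages (3.97 to 4.57) and monocytes (4.30 to 4.50) overlapped, and so did monocytes and macrophages with PAM3CSK4 dendritic cells (4.43 to 4.85). In complex IV, over 12 shared members, vehicle dendritic cells had 4.58 ± 0.24, macrophages 4.51 ± 0.38 and monocytes 4.76 ± 0.09.

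**Figure D5:**
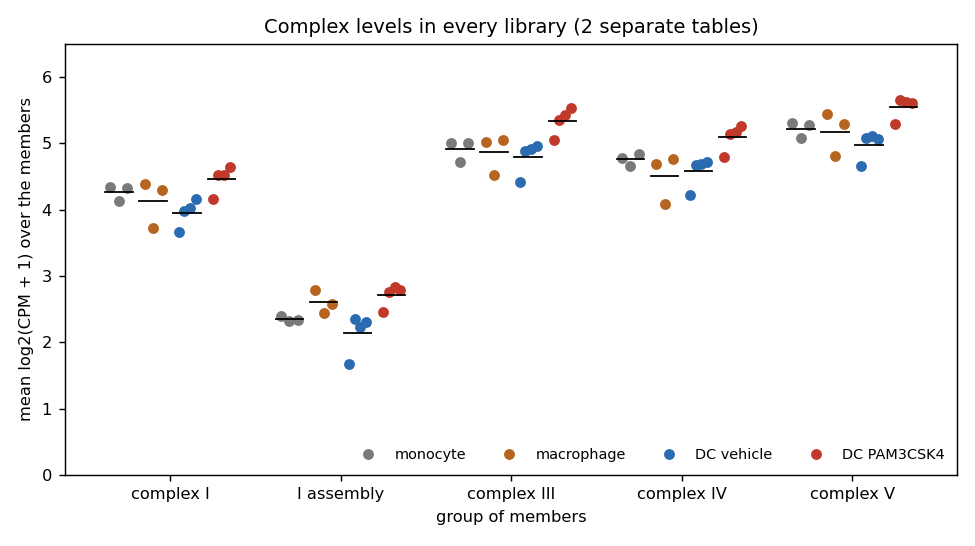
Mean log2(CPM + 1) over the members found in both tables (82 in all) in each of the 14 libraries, by complex, with bars at group means; dendritic cells come from 1 table and monocytes and macrophages from the other. In complexes I, III and V the vehicle dendritic cells have the lowest mean, in complex IV the macrophages do, and the ranges of neighbouring groups overlap in complexes I, IV and V.

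For 5 of 83 genes (Cox6a2 is listed in both tables) every vehicle dendritic cell library was below every monocyte and every macrophage library, against 19.0% of the background: Atp5g3, Ndufa4, Ndufa12, Ndufab1 and Ndufs1. Ndufs1, the largest core subunit of complex I, was at 13.8 ± 1.87 CPM in vehicle dendritic cells, 35.6 ± 4.95 CPM in monocytes and 39.9 ± 6.34 CPM in macrophages. Ndufa12 was at 6.91 ± 1.63, 15.9 ± 4.45 and 14.7 ± 1.26 CPM. Ndufab1, the mitochondrial acyl carrier protein, was at 3.95 ± 1.14, 9.07 ± 0.86 and 10.04 ± 3.88 CPM. For 0 was every vehicle library above both other populations, against 2.44% of the background, and without vehicle replicate 1 for 2, Cox7a2l and Ndufa6. The 5 genes below were the same without vehicle replicate 1, and 6 and 10 members lay below without monocyte replicate 2 and macrophage replicate 2. A difference between the 2 tables in how reads were assigned to genes was not tested.

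After PAM3CSK4 the order differed for some of these. Atp5g3 went from 19.7 ± 3.04 to 39.0 ± 10.6 CPM, beside 29.6 ± 4.01 CPM in monocytes and 42.4 ± 10.7 CPM in macrophages. Ndufs1 stayed below both populations, at 17.0 ± 3.10 CPM. Cox5a, at 27.2 ± 4.93 CPM with vehicle, was near monocytes (23.1 ± 2.48 CPM) and macrophages (29.4 ± 9.498 CPM), and at 62.1 ± 20.7 CPM after PAM3CSK4 was above both without overlap. The PAM3CSK4 libraries were above every monocyte library for 18 of 83 genes and below for 3, against 5.74% and 18.9% of the background. They were above every macrophage library for 33 and below for 2, against 8.96% and 26.0%. Cox6a2, a member only through its PAM3CSK4 values and not among the background genes, is counted in both the 18 and the 33. Vehicle libraries were above monocytes for 0 and below for 13, against 5.76% and 27.9%, and above macrophages for 1 and below for 11, against 9.67% and 36.9%.

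Levels of different genes were compared only per kilobase of exon (GENCODE M21). In vehicle dendritic cells the highest members on the scale of CPM per kilobase were Ndufa2 in complex I (26.6), Uqcrfs1, the Rieske iron-sulphur protein, in complex III (36.7), Cox8a in complex IV (78.6) and Atp5a1 in complex V (88.4). The lowest members were Ndufab1 (0.57) and Atp5s (0.73) for complexes I and V and Uqcrq (8.07) for complex III. Atp5a1 was also the highest of complex V in monocytes (108) and macrophages (91.5). Exon length here is the union of a gene's exons, which can exceed the length of its transcript.

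Some subunits were listed near 0 in every population. Ndufs5, an accessory subunit of complex I, read at most 0.875 CPM in any library and did not reach the level of a member. Cox7c, a subunit of complex IV, read 0.0002 to 3.24 CPM in the 14 libraries. Both are known as obligatory subunits with near-identical copies elsewhere in the genome, how reads were counted there is not given in the sources used here, and their values and those of Ndufb4c are uncertain.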

How the data were processed

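RNA of 14 libraries was sequenced in bulk. Per the labels' protocols, RNA was purified with a micro column kit and made into libraries after ribosomal RNA depletion. Per the submitters' processing notes, STAR 2.5.3a, Partek and the build mm10 were used, in roles that are not stated; the counting method, annotation and strand setting were not given in the sources used here.

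Values were deposited by the authors in 2 tables named FPKM and are read here as CPM: low values were spaced by 1 step, used for genes of every length (65.8% to 68.4% of values up to 50 steps within 0.05 steps in dendritic cells, 87.7% to 90.6% in the other table; in dendritic cells 75.6% to 79.7% for the third of genes that is shortest and 57.1% to 59.7% for that of the longest genes). If 1 step is 1 read, 1 CPM stood for 28.2 to 71.6 reads in dendritic cells and 33.4 to 75.1 in the other libraries; these shares were too low to recover reads, so no count test was run. The lowest listed value is 0.0001. In the table of monocytes and macrophages 3 further columns named for dendritic cells matched no single sample by name and were not used.

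Within each table, limma 3.58.1 in R 4.3.3 (lmFit, eBayes with trend) was run on log2(CPM + 1) of genes with at least 1 CPM in at least 4 (dendritic cells) or 3 libraries (monocytes and macrophages), as a two-sided test at 0.05 after Benjamini-Hochberg adjustment across every tested gene, and checked on simulated data. Log2 changes on this scale understate changes of low genes. The members and lists were chosen with earlier results of these data known. Named members are, per class, up to 4 in order of p, the highest and lowest of each complex, the tissue forms of complex IV with their partners and the c-ring genes; others are said to be chosen later. Alternatives covered the pseudocount (0.1), the filter, 3 scalings, library weights, the replicate number and each library left out. A GC adjustment was added after seeing the data. 1 gene that the rule names is not reported here.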

Additional observations from a re-analysis of the deposited data

Results flagged for a closer look

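In groups of 4 dendritic cell libraries, 90 sets of values of members and complexes were checked for 1 library far from the other 3, and 9 were found. Chance gives about 1 in 20 for a single set. The sets share libraries and members and are not independent, so the 9 cannot be judged against that rate. Vehicle replicate 1 was low in 4 complex averages (mean log2(CPM + 1)): 1.67 for the complex I assembly factors against 2.23 to 2.35 in the other 3 libraries, 4.42 for complex III against 4.88 to 4.96, 3.90 for complex IV against 4.32 to 4.39, and 4.65 for complex V against 5.06 to 5.10. PAM3CSK4 replicate 1 was low in the average of complex V, at 5.30 against 5.61 to 5.66.

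Single members, in CPM, made up the other 4. Cox5b read 40.2 CPM in PAM3CSK4 replicate 1 against 54.2 to 56.6 CPM in the others of its group, and Ndufv2 read 42.1 CPM against 50.6 to 51.9 CPM. Cox6b2 was high in PAM3CSK4 replicate 4, at 4.63 CPM against 0.688 to 1.20 CPM. Cox8a was high in vehicle replicate 4, at 73.5 CPM against 37.9 to 41.7 CPM. Causes were not tested.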

How the results depend on the processing

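In dendritic cells the members called (3) became 0 with no filter on low values, which adds genes at the floor in every library. They became 21 (25.3%) with library weights. With 1 library left out they ranged from 0 (without vehicle replicate 1, 2 or 3) to 13 (without PAM3CSK4 replicate 1). All genes called (582, or 5.12%) became 32 (0.128%), 1649 (14.5%) and 184 to 1008 (1.59% to 8.72%). The members' median was 0.352 after median centring. Same-numbered dendritic cell libraries did not all deviate together (correlations 0.0332, 0.2897, −0.1154 and 0.2996, against −0.3779 to 0.1957 for different numbers). In the other table same-numbered pairs had 0.1829, 0.0836 and 0.1153, against −0.1176 to 0.0186 for different numbers. What a shared number stands for is not given in the labels, and a pairing cannot be settled from these values. With the replicate number as a block 10 members (12%) and 976 genes (8.58%) were called in dendritic cells. In macrophages against monocytes 0 members and 2609 genes (21.4%) were called with it.

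In macrophages against monocytes the members called (0) became 1 after rescaling, 3 after median centring and 2 after quantile normalization. The shares of all genes were then 23.3%, 21.9% and 18.4%. Members called became 16 (19.5%) with library weights, against 44.9% of all genes. With the GC adjustment, which was chosen after seeing the data, they became 7 (8.64%), against 29.4%. With 1 library left out they ranged from 0 to 3, against 13.7% to 26.7%. All genes called (2468) became 5471 with weights. The members' median was 0.0501 after rescaling and ranged from −0.2178 to 0.0602 with 1 library left out.

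The log2 changes that turned were of members not past the threshold. In dendritic cells these were, with median centring, Atp5g2 (−0.0115), Atp5s (−0.0754), Cox4i1 (−0.0091) and Cox7c (−0.0145); with quantile normalization Atp5g2 (−0.0054); with the GC adjustment Atp5s (−0.0781) and Cox7c (−0.0042); and with 1 library left out Atp5s (−0.1017 to 0.3063), Cox7c (−0.118 to 0.445) and Ndufa6 (−0.2244 to 0.0301). In macrophages against monocytes they were, after rescaling, Atp5b (0.0354), Cox7a2 (0.0554), Cox8a (0.0438) and Uqcrfs1 (0.0085); with quantile normalization Atp5b (0.1626) and Ndufaf2 (−0.2524); with weights Ndufc1 (0.0018); and with 1 library left out Atp5b (−0.2208 to 0.0153), Atp5g1 (−0.0873 to 0.4227), Cox6b2 (−0.5095 to 0.2684), Cox7a2 (−0.2466 to 0.1045), Cox8a (−0.291 to 0.0434), Ndufv1 (−0.5194 to 0.0267) and Uqcrfs1 (−0.3137 to 0.0155). The cause was not tested for any of these. Other values of named members kept their direction. Few reads limit the precision of members of a few CPM, such as Cox6a2 and Ndufaf4.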
